A study of Homo sapiens with 9 samples.

Results

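The transcriptome of ES-2 cells overexpressing SNX29P2 was compared with that of ES-2 cells carrying an empty vector, with 3 libraries in each group, 6 of the 9 libraries of the series. The members were taken by the genotype in the labels, and the genes by level: 16533 of the 32997 genes in the table reached at least 0.5 RPKM (reads per kilobase of gene, scaled to the reads of the library) in at least 3 libraries. ES-2 is a human ovarian cancer cell line. The other 3 libraries came from ES-2 cells overexpressing OTUB2, a deubiquitinating enzyme. All groups were the same line, in RPMI-1640 medium with serum and with no treatment, so they differed in the construct alone as far as the labels state. The labels do not say whether a group was a clone or a pool, which promoter drove the construct, or whether its libraries stem from independent cultures, so the p-values reflect spread among these libraries that could be technical in origin.

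SNX29P2 is a transcribed pseudogene related to SNX29, a member of the sorting nexins, proteins that bind membrane lipids and direct traffic between endosomes, lysosomes and the cell surface. Pseudogene transcripts carry sequence close to that of a parent gene and have been studied as regulators of RNA and protein stability. The title of the series links OTUB2 to mitochondrial metabolism and to the carbonic anhydrase CA9, whose gene responds to the hypoxia-inducible factors (HIFs), and the comparison asks how SNX29P2 alters the same cells.

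The targeted transcript matched the labels. SNX29P2 was at 0.0665, 0.0246 and 0 RPKM in vector replicates 1 to 3 and at 41.0, 55.1 and 47.6 RPKM in SNX29P2 replicates 1 to 3. Libraries of this comparison held 38504854 to 47189968 reads in genes, and within a group their log2 levels correlated at 0.971 to 0.979 across genes. Mitochondrial genes took 4.97 to 5.23% of reads in the vector libraries and 4.60 to 4.96% in the SNX29P2 libraries. Of 13 epithelial markers in the table, 10 were below the filter, EPCAM, KRT19 and PAX8 among them, and 3 keratins were measured, with a summed level of 254 to 288 RPKM with the vector and 247 to 270 RPKM with SNX29P2. Of 13 mesenchymal markers, 10 were measured, and VIM, the filament vimentin, was at 1105 to 1145 RPKM in the vector libraries. The summed level of the 10 was 1296 to 1367 RPKM with the vector and 1156 to 1201 RPKM with SNX29P2. Of them, 4 lay higher and 6 lower, with a median log2 fold change of -0.03. Of 9 clear cell ovarian markers, 6 were measured, NAPSA not among them. The summed level of the 6 was 76 to 78 RPKM with the vector and 80 to 88 RPKM with SNX29P2. Of the 6, 3 lay higher and 3 lower, and 1 was without overlap, higher, against 6.13% of all genes. Of 9 leukocyte markers in the table, 8 were below the filter, CD68 being measured, and their summed level was 31.1 to 32.3 RPKM with the vector and 28.6 to 33.0 RPKM with SNX29P2. Of 7 endothelial markers, 5 were below the filter, and the sum was 134 to 139 RPKM with the vector and 131 to 145 RPKM with SNX29P2.

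Few genes passed the test. Values were compared as log2(RPKM + 0.1), so a fold change is on that scale and understates the change of low genes. With limma on all 9 libraries and no block, 3 genes were higher and 3 lower at a Benjamini-Hochberg adjusted p under 0.05 ("called" below), each 0.0181% of the genes tested and together 0.0363%. The higher genes were SNX29P2, its overlapping transcript RP11-231C14.7 and its near-identical copy SNX29P1, which can share its reads. The lower genes were CA9, the proteoglycan gene BGN and the lysosomal glucosidase gene GAA. With the replicate number as a block, the same 3 were higher, and COL6A2, PLTP and FSTL3 joined the lower genes, giving 6 (0.0363%) and 9 in all (0.0544%). The numbers were not shown to pair all the samples, so calls made in the blocked fit alone are named as such. In the text "called" refers to these limma fits unless voom is named. Voom, limma's method for read counts, on reads recovered from the values called the same 3 higher (0.0181%) and 7 lower (0.0423%) without the block, namely CA9, BGN, GAA, COL6A2, PLTP, AEBP1 and ABI3BP. With the block it called 21 higher (0.127%) and 47 lower (0.284%).

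At an unadjusted p under 0.05, 682 genes (4.13%) lay higher and 676 (4.09%) lower without the block, 8.21% in all. The same counts with the block were 1151 (6.96%) and 1121 (6.78%), 13.7% in all. All 3 SNX29P2 libraries lay above all 3 vector libraries in 1013 genes (6.13%) and below them in 914 (5.53%). The median log2 fold change over all genes was 0.01, with quartiles of -0.09 and 0.12, and 8865 genes (53.6%) lay above 0 and 7668 (46.4%) below. A change past 2-fold in either direction was seen in 182 genes (1.10%). The standard error of the fold change (log2) had a median of 0.126 without the block, so a typical 95% interval reached 0.28 to each side, a factor of 1.22. Under the block the median standard error was 0.0989.

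**Figure D1:**
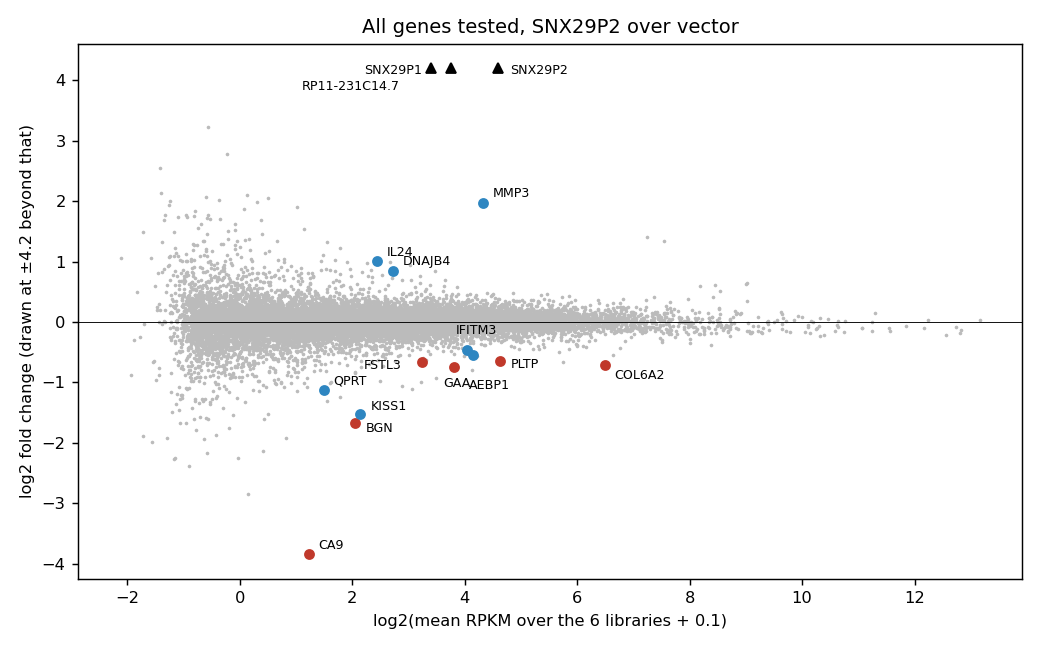
Log2 fold change (SNX29P2 over vector) of each gene tested against its mean level, log2 of the mean RPKM over the 6 libraries plus 0.1. Red points are genes called lower in either fit, triangles the 3 SNX29P2 transcripts drawn at the upper limit, and blue points other genes named in the text. Most genes lie close to 0, and BGN lies at -1.67 and CA9 at -3.85.

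Promoters of the 5 genes called lower besides CA9 are printed here so that they can be read for hypoxia-type elements. In the main limma fits COL6A2, PLTP and FSTL3 were called under the block only. HIFs bind ACGTG or GCGTG, and CACGTG is the E-box bound by several other factors. The sequences are RefSeq promoters of GRCh38.p14, 250 bases before to 50 after the start nearest to the deposited gene start. Capitals mark these motifs wherever they occur on either strand.
BGN promoter, chrX:153494730-153495029, plus strand: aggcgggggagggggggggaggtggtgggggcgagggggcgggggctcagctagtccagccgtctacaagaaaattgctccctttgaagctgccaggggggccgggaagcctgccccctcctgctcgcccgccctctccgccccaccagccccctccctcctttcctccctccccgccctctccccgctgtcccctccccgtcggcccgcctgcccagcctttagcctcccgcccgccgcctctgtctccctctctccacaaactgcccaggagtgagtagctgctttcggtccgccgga
COL6A2 promoter, chr21:46097862-46098161, plus strand: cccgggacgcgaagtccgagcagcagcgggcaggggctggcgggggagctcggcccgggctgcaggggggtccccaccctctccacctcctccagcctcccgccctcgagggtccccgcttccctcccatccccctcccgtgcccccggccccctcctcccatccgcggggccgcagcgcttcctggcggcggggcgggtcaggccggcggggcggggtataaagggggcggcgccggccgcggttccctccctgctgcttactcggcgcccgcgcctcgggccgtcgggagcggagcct
FSTL3 promoter, chr19:676142-676441, plus strand: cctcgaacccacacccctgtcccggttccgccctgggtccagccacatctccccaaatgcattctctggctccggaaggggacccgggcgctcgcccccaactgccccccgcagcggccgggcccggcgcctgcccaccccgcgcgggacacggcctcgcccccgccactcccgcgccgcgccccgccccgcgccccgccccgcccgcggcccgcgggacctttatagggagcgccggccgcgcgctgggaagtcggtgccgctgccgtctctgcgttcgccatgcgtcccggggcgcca
PLTP promoter, chr20:45912106-45912405, minus strand: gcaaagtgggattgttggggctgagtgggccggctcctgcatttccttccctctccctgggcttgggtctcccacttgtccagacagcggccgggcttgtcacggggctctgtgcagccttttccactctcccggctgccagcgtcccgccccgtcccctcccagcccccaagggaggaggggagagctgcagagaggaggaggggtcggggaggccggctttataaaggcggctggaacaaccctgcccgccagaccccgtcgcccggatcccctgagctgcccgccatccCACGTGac
GAA promoter, chr17:80101331-80101630, plus strand: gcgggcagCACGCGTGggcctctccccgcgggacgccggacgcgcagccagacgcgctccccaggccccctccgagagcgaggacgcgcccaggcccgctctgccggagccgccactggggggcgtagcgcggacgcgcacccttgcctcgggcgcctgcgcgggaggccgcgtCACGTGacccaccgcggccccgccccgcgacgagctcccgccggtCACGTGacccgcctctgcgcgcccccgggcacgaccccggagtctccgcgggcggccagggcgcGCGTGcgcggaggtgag
Each CACGTG also holds ACGTG on both strands. PLTP held CACGTG 1 time. GAA held it 2 times, with 3 matches to GCGTG besides. The windows of BGN, COL6A2 and FSTL3 held none of the motifs. Among all 35116 RefSeq promoters of this length, 21.4% held ACGTG, 36.5% held GCGTG and 7.26% held CACGTG. Among the 13650 promoters of genes tested here, the shares were 26.1%, 48.6% and 9.55%. G and C made up 68.0 to 81.3% of the 5 windows, against a median of 58.7% over all promoters.

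BGN was the matrix gene called lower in both fits. BGN (chrX:153494939-153509554, plus strand, protein coding) encodes biglycan, a small leucine-rich proteoglycan that binds collagen and growth factors in the extracellular matrix. It was at 6.27, 7.33 and 5.13 RPKM in vector replicates 1 to 3, a mean of 6.24 ± 1.10 (SD, n = 3). With SNX29P2 it was at 1.73, 1.98 and 1.94 RPKM, a mean of 1.88 ± 0.136 (SD, n = 3). BGN fell by 1.67 on the log2 scale (SE 0.132, 95% interval -1.96 to -1.37), 3.17-fold, with a limma adjusted p of 0.00124 and of 0.0137 under the block. The lowest vector library stayed above every SNX29P2 library by a wide margin, and the SNX29P2 libraries lay close together. Without the block BGN was called in each of the 6 fits that left out a library. Under the block it was called in 2 of the 6, without vector replicate 1 or vector replicate 3, and the highest adjusted p was 0.158, without SNX29P2 replicate 2. It was also not called with the libraries numbered 2 left out (adjusted p = 0.0912) or under the block with only the compared groups (adjusted p = 0.0746). HAUS7 overlaps BGN on the opposite strand, and whether counting used strand is not given in the sources used here.

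COL6A2 (chr21:46098097-46132849, plus strand) encodes a chain of collagen VI, a beaded-filament collagen that surrounds cells. It was at 108, 125 and 103 RPKM in the vector libraries and at 60.0, 74.5 and 72.4 RPKM in the SNX29P2 libraries. The groups did not overlap, and library 2 was the highest of each group. The log2 fold change was -0.70 (SE 0.117), with a limma adjusted p of 0.244 without the block and 0.0469 with it. The blocked call was kept in 2 of the 6 fits with a library left out, without vector replicate 1 or vector replicate 3, and voom without the block called COL6A2 (adjusted p 0.0319). COL6A1, a gene for another chain of the same collagen that was picked out once its values were known, was at 65.7, 85.2 and 66.9 RPKM with the vector and 49.2, 62.8 and 52.7 RPKM with SNX29P2, a log2 fold change of -0.40 (limma adjusted p 0.543, blocked 0.0647).

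Among 31 measured collagens and matrix glycoproteins, 25 lay lower and 6 higher, with a median log2 fold change of -0.18 against 0.01 over all genes. In 8 of them every SNX29P2 library lay below every vector library, and in 1, LAMB3 (0.25), above. Over all genes these shares were 5.53% below and 6.13% above. By limma no member was called without the block and COL6A2 was called with it, whereas voom without the block called COL6A2, AEBP1 and ABI3BP, all lower. AEBP1, which encodes a secreted collagen-binding protein, was at 22.8, 20.01 and 19.8 RPKM with the vector and 13.5, 13.9 and 15.4 RPKM with SNX29P2, a log2 fold change of -0.55 (SE 0.0799, limma adjusted p 0.136, voom adjusted p 0.0319). ABI3BP, a matrix protein gene at low level, lay at -1.27 (limma adjusted p 0.489, voom adjusted p 0.00415), and FN1, the fibronectin gene, at -0.43. The list lay at -0.26 without vector replicate 3 and at -0.16 without vector replicate 1.

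Of the small leucine-rich proteoglycans, BGN and TSKU were measured, and TSKU lay at -0.35 with overlapping libraries. Collagen-processing and crosslinking genes lay lower in 15 of 19, with a median of -0.10 (-0.06 without SNX29P2 replicate 2). They include PCOLCE (-0.26), an enhancer of procollagen processing, and LOXL3 (-0.24), a lysyl oxidase. Matrix proteases and their inhibitors were mixed, with 11 of 19 lower. MMP2, a gelatinase, lay at -0.29 and PLAU, urokinase, at -0.30. MMP3, which encodes stromelysin-1, was at 6.41, 6.84 and 7.39 RPKM with the vector and at 63.8, 19.1 and 16.6 RPKM with SNX29P2. Its log2 fold change was 1.97 (SE 0.617), with a limma adjusted p of 0.516. All 3 SNX29P2 libraries were above the vector, but SNX29P2 replicate 1 was far higher than the others.

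**Figure D2:**
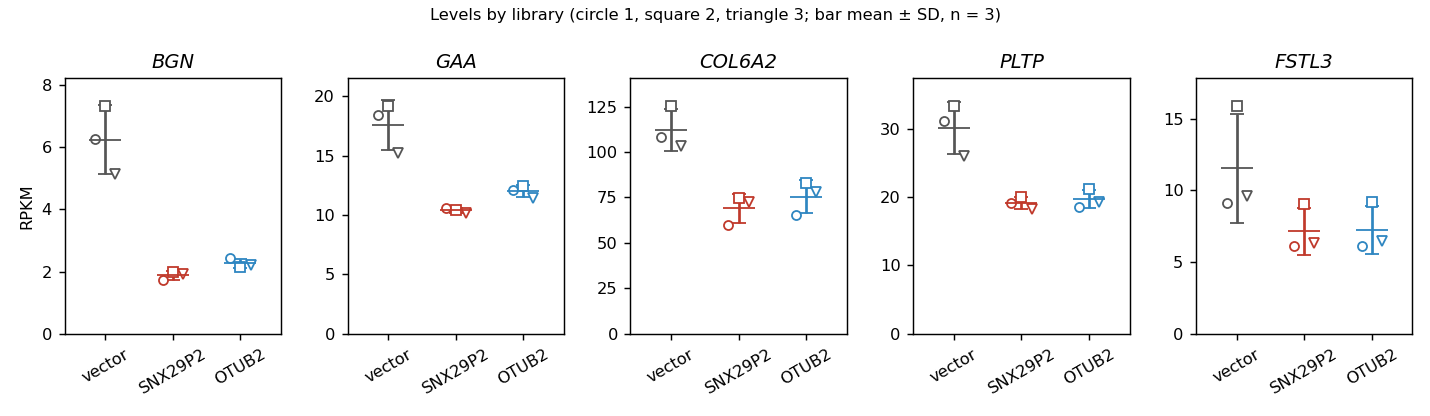
Levels in RPKM of BGN, GAA, COL6A2, PLTP and FSTL3 in each library of the vector, SNX29P2 and OTUB2 groups. Circles are libraries numbered 1, squares 2 and triangles 3, and bars are the mean ± SD (n = 3). In each gene every SNX29P2 library lies below every vector library, by the smallest margin in FSTL3 (9.02 against 9.12 RPKM).

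GAA was the lysosomal gene called lower in both fits. GAA (chr17:80101556-80119879, plus strand) encodes acid alpha-glucosidase, the enzyme that degrades glycogen inside lysosomes. It was at 18.4, 19.2 and 15.2 RPKM with the vector and at 10.6, 10.5 and 10.2 RPKM with SNX29P2. The means were 17.6 ± 2.12 and 10.4 ± 0.221 (SD, n = 3), without overlap. GAA fell by 0.75 on the log2 scale (SE 0.0897), 1.68-fold, with a limma adjusted p of 0.0317 and of 0.0274 under the block. The unblocked call was kept only when vector replicate 3, the lowest vector library, was left out (adjusted p = 0.00430). It was lost without each of the other 5 libraries, at adjusted p of 0.134 to 0.226, with only the compared groups (0.182) and without the libraries numbered 2 (0.722), and the blocked call was kept in 2 of the 6 fits, without vector replicate 1 or vector replicate 3, while the log2 fold change stayed between -0.85 and -0.68.

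Of 37 measured lysosomal genes, 24 lay lower and 13 higher, with a median of -0.03 (-0.10 without vector replicate 3). In 6 the libraries did not overlap, all lower, against 5.53% of all genes lower and 6.13% higher, and GAA was the called member. TPP1, a lysosomal peptidase, was at 55.7, 48.8 and 41.1 RPKM with the vector and 38.6, 35.1 and 35.3 RPKM with SNX29P2, a log2 fold change of -0.41. CTSB, cathepsin B, lay at -0.24. Among 15 genes of glycogen metabolism, GAA included, 9 lay lower and 6 higher. GYG1, which primes glycogen synthesis, lay at 0.27 and PGM1, which interconverts glucose phosphates, at -0.19, both with overlapping libraries.

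PLTP and FSTL3, which both encode secreted proteins, fell in the blocked fit, a call kept with a library left out in 2 of 6 fits for PLTP, without vector replicate 1 or vector replicate 3, and in 1 of 6 for FSTL3, without vector replicate 1. PLTP (chr20:45898621-45912155, minus strand) encodes phospholipid transfer protein. It was at 31.1, 33.4 and 26.0 RPKM with the vector and at 19.1, 20.1 and 18.3 RPKM with SNX29P2. The groups did not overlap, and the log2 fold change was -0.65 (SE 0.0965), with a limma adjusted p of 0.141 without the block and 0.0499 with it. Without the block PLTP was called by voom (adjusted p 0.0319) and, by limma, without vector replicate 3 (adjusted p 0.0252). CTSA overlaps PLTP on the opposite strand and lay at -0.10. FSTL3 (chr19:676365-683399, plus strand) encodes a follistatin-like binder of activin. It was at 9.12, 15.9 and 9.58 RPKM with the vector and at 6.11, 9.02 and 6.32 RPKM with SNX29P2. Library 2 was the highest of each group, and the log2 fold change was -0.66 (SE 0.240), with an adjusted p of 0.551 without the block and 0.0499 with it. FSTL3 lay at -0.40 without vector replicate 2 in the unblocked fit.

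Other genes of TGF-beta, activin and BMP signalling were divided. Of 26 measured, 14 lay lower and 12 higher, with a median of -0.04, or 0.01 when vector replicate 2 was left out. In 4 the libraries did not overlap, all lower, against 5.53% of all genes lower and 6.13% higher. BMP2, a bone morphogenetic protein, was at 3.77, 4.69 and 4.90 RPKM with the vector and 2.87, 3.05 and 3.61 RPKM with SNX29P2, a log2 fold change of -0.47. LTBP2, a latent TGF-beta binding protein, lay at -0.27.

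A wider rule asked for no overlap between the libraries and an unadjusted p under 0.01 in both fits. It also asked for a mean of at least 1 RPKM in a group. CA9 and the SNX29P2 transcripts aside, 222 genes with a symbol met it, BGN, GAA, COL6A2 and PLTP included, 88 higher and 134 lower. Of these, the 12 with the highest and the 12 with the lowest fold changes are described here, and BGN was the 1 called gene among them. Of the 12 highest, 7 are small RNA genes and 5 encode proteins. IL24, a cytokine of the interleukin 10 family, was at 3.34, 4.42 and 2.86 RPKM with the vector and 7.88, 7.79 and 5.84 RPKM with SNX29P2, a log2 fold change of 1.01 (SE 0.214, limma adjusted p 0.489, blocked 0.0724). DNAJB4, a co-chaperone of the HSP40 family, was at 4.31, 4.93 and 4.68 RPKM with the vector and 9.19, 7.99 and 8.16 RPKM with SNX29P2, a log2 fold change of 0.85 (limma adjusted p 0.244). Both genes kept a clear gap between the groups. EVI2A, a membrane protein gene within an intron of NF1, lay at 0.58, ELOVL2, an elongase of polyunsaturated fatty acids, at 0.53 and CHORDC1, an HSP90 co-chaperone, at 0.48.

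The small RNA genes were MIR199A1, MIR3682, MIR6781, MIR6881, SNORD62B, SNORA71C and SNORD125. They are short, and 6 of them sit inside a longer gene on the same strand, whose reads can fall on them, while MIR199A1 lies opposite DNM2. MIR199A1 was at 0 RPKM in each vector library and at 2.46, 0.705 and 0.299 RPKM with SNX29P2. SNORA71C, a box H/ACA snoRNA gene within SNHG17, was at 3.85, 4.65 and 5.96 RPKM with the vector and 8.14, 9.34 and 6.48 RPKM with SNX29P2. The protocols name total RNA extraction and standard Illumina libraries, so these values are not taken as measurements of the mature small RNAs.

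Among the 12 lowest, KISS1, which encodes the metastasis suppressor kisspeptin, was at 5.85, 7.99 and 5.53 RPKM with the vector and at 2.83, 1.70 and 2.09 RPKM with SNX29P2. Its log2 fold change was -1.52 (SE 0.293, limma adjusted p 0.402, blocked 0.170), and the highest SNX29P2 library was well below the lowest vector library. ALDOC, a brain-type aldolase of glycolysis, lay at -1.08 and overlaps RP11-192H23.4 on its strand. HSD17B8, a mitochondrial hydroxysteroid dehydrogenase, was at 2.92, 2.62 and 2.09 RPKM with the vector and 1.14, 1.84 and 1.01 RPKM with SNX29P2, a log2 fold change of -0.92. The pseudogenes UBA52P6 (-2.25), RPL39P and HS6ST1P1 share sequence with expressed parent genes, so their values are uncertain. The others were SEZ6L2, QPRT, SNORA7B, RBMS3-AS3, RN7SL4P and BGN.

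SEZ6L2 and QPRT lie near the SNX29P2 locus on chromosome 16, a neighbourhood examined after their values were seen. Of 70 other genes measured within 1 Mb of the SNX29P2 start, 26 lay higher and 44 lower, with a median of -0.04, and 3 were without overlap above the vector and 12 below. The corresponding shares over all genes were 6.13% and 5.53%. QPRT, an enzyme of NAD synthesis from quinolinate, was at 4.47, 4.74 and 2.29 RPKM with the vector and 1.62, 1.80 and 1.46 RPKM with SNX29P2, a log2 fold change of -1.13. SEZ6L2, a membrane protein gene, was at 3.08, 3.19 and 1.84 RPKM with the vector and 1.51, 1.02 and 0.949 RPKM with SNX29P2, a log2 fold change of -1.14. In both genes vector replicate 3 was the lowest vector library. AC009133.22 overlaps QPRT on the same strand, so the pair can share reads, and it lay at -1.10. MVP, the major vault protein gene, lay at -0.27. Among the 12 are also SLX1A, SLX1B and BOLA2B, members of near-identical copy pairs whose counts are uncertain. SLX1A-SULT1A3 and SLX1B-SULT1A4, which overlap SLX1A and SLX1B on the same strand, are counted too, so the 12 are not all separate genes. Among the 3 above the vector, CLN3 and RP11-435I10.4 likewise overlap on the same strand. Of the 12, QPRT, SEZ6L2, AC009133.22 and ALDOA were also below every vector library with OTUB2. With OTUB2, AC009133.22 was at 3.75, 5.10 and 3.49 RPKM, QPRT at 1.46, 1.80 and 1.14 RPKM and SEZ6L2 at 1.39, 1.44 and 0.774 RPKM. ALDOA, at a log2 fold change of -0.12 with SNX29P2, was at 140.7, 138.6 and 142 RPKM with OTUB2. Its lowest vector library was at 143.2 RPKM.

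**Figure D3:**
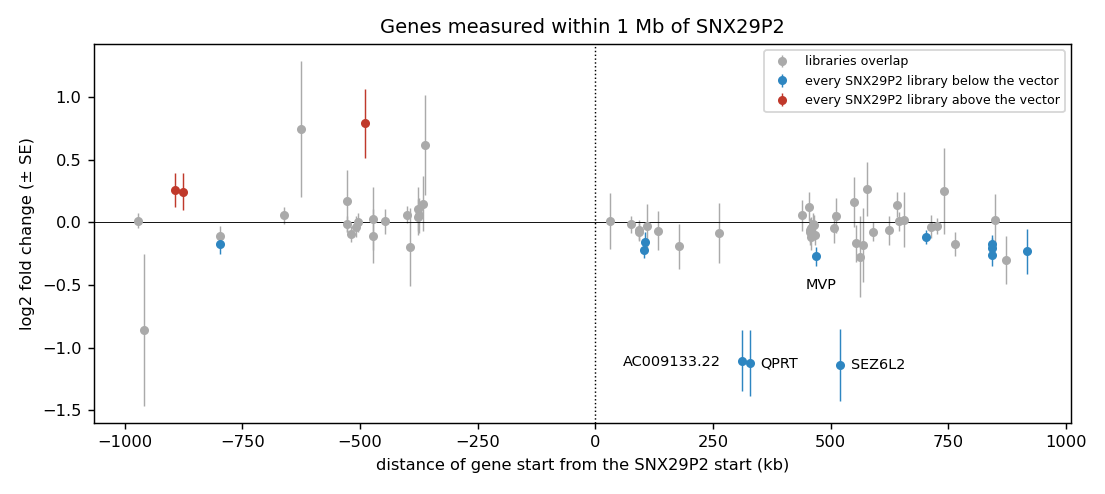
Log2 fold change (± SE) of the 70 genes measured within 1 Mb of SNX29P2, by the distance in kb of their start from the SNX29P2 start. Blue points are genes in which every SNX29P2 library was below every vector library, red points the reverse, and grey points overlap. AC009133.22, QPRT and SEZ6L2 lie near -1.1, and most other genes lie close to 0.

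Gene lists were compared by counts and medians, without a test of the list. Chaperone genes lay higher. Of 18 heat shock genes, which encode chaperones that refold proteins, 17 lay above 0, with a median of 0.21. In 3 the libraries did not overlap, all higher, against 6.13% of all genes. HSP90AA1 was at 447, 409 and 515 RPKM with the vector and 638, 507 and 591 RPKM with SNX29P2, a log2 fold change of 0.34 with overlapping libraries. HSPH1, a nucleotide exchange factor of HSP70, lay at 0.35. HSPA1A, an inducible HSP70 chosen after its values were seen, was at 44.1, 125 and 68.0 RPKM with the vector and 408, 134 and 130 RPKM with SNX29P2, a log2 fold change of 1.41 (SE 0.613). HSPA1B is a near-identical copy, and the split of reads between them is uncertain. SNX29P2 replicate 1 stood far above the others in HSPA1A, as in MMP3, and vector replicate 1 had the lowest level of the list. The 10 measured histone genes listed as signs of RNA quality were also highest in SNX29P2 replicate 1, 0.40 above the mean of the 6 libraries on the log2 scale against -0.27 to 0.05 in the others, and their median turned from 0.09 to -0.16 without it. Their part in these results was not tested. The median of the heat shock list was 0.18 to 0.29 with each library left out.

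Of 20 genes of the unfolded protein response, which relieves stress in the endoplasmic reticulum, 17 lay higher, with a median of 0.14. HERPUD1, a component of the degradation machinery of that compartment, lay at 0.51 with overlapping libraries and CANX, the chaperone calnexin, at 0.24 without overlap. The median was 0.08 without vector replicate 3 and 0.26 without vector replicate 2. ATF4 itself, the transcription factor of the amino acid and stress response, was at 89.1, 90.8 and 86.9 RPKM with the vector and 123, 108 and 101 RPKM with SNX29P2, a log2 fold change of 0.31. Of 22 genes of the ATF4 response, 10 lay higher and 12 lower. ASNS, asparagine synthetase, was at 9.11, 25.9 and 10.8 RPKM with the vector and 6.25, 8.10 and 7.09 RPKM with SNX29P2, a log2 fold change of -0.93 in which vector replicate 2 stood apart. DDIT4, an inhibitor of mTOR signalling, lay at -0.99 with overlapping libraries.

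Proteasome subunit genes lay higher in 29 of 31, by a small amount, with a median of 0.10. Without overlap, 6 lay above the vector and none below, against 6.13% of all genes above. The largest of those named were PSMA4 (0.21) and PSMD12 (0.20). The median came to 0.03 without vector replicate 2, in which these genes had their lowest level among the vector libraries, and was 0.16 without vector replicate 3. Genes of G2/M and mitosis lay higher in 30 of 30, with a median of 0.32, but only CENPF was without overlap. MKI67, the proliferation antigen Ki-67, was at 33.2, 29.9 and 41.2 RPKM with the vector and 39.7, 47.5 and 45.4 RPKM with SNX29P2, a log2 fold change of 0.35. The mean level of the list in vector replicate 2 was 0.56 below the mean of the 6 libraries on the log2 scale, and without that library the median was 0.08, with 26 of 30 higher. DNA replication genes had a median of 0.03 (0.01 without vector replicate 3, 0.06 without vector replicate 1), with 20 of 32 higher.

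Cytosolic ribosomal protein genes lay lower in 48 of 49, with a median of -0.12. In 20 of them the libraries did not overlap, all lower, against 5.53% of all genes, and none was called. RPL3 was at 464, 467 and 431 RPKM with the vector and 410, 376 and 378 RPKM with SNX29P2, a log2 fold change of -0.23. RPS18 lay at -0.18. The mean levels of the list in vector replicate 1 and SNX29P2 replicate 1 were alike, at 0.00 from the mean of the 6 libraries, whereas the libraries numbered 2 and 3 lay at 0.08 and 0.09 with the vector and at -0.09 with SNX29P2. Ribosomal protein genes have many processed pseudogenes, which can take or give reads. With each library left out, 48 or 49 of the 49 lay lower.

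**Figure D4:**
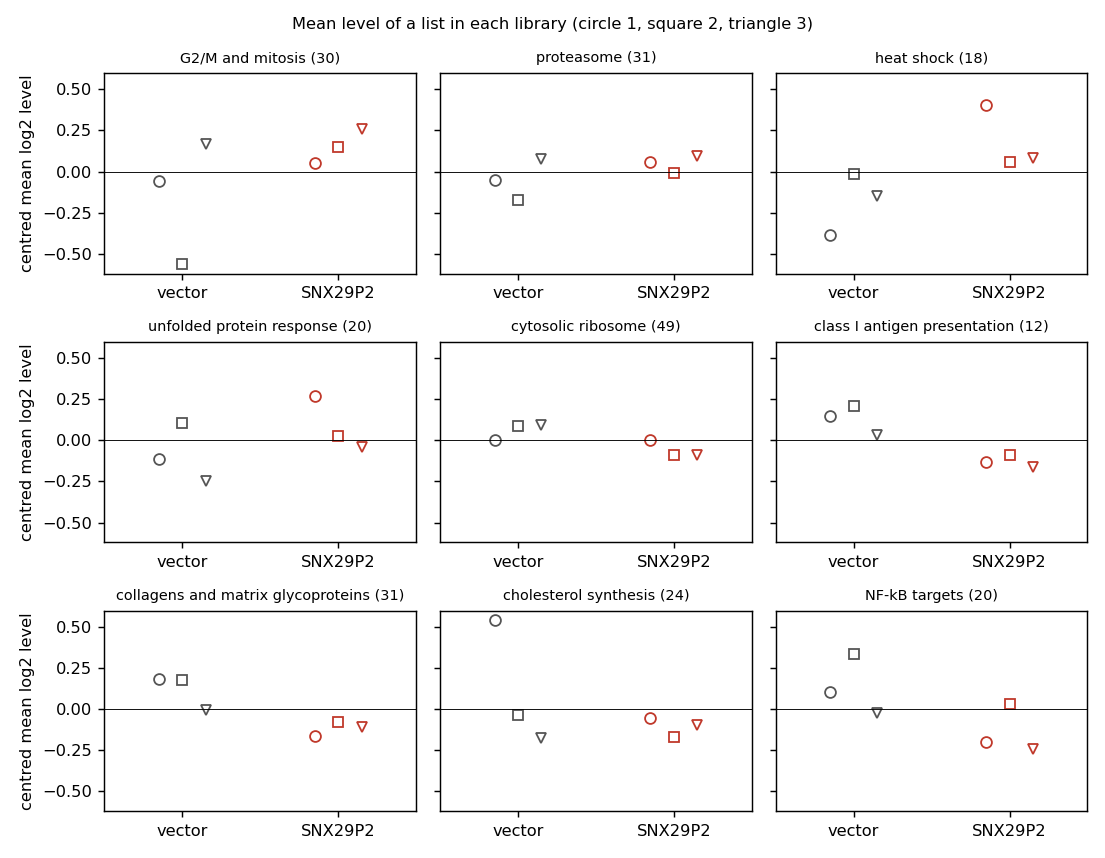
Mean level of 9 gene lists in each library (log2 scale, centred on the mean of the 6 libraries), with the number of measured genes in brackets. Circles are libraries numbered 1, squares 2 and triangles 3. The groups do not overlap for class I antigen presentation, collagens or heat shock. For the cytosolic ribosome they nearly meet, at 0.0027 in vector replicate 1 and 0.0020 in SNX29P2 replicate 1. Vector replicate 2 is far below the others for G2/M and mitosis and vector replicate 1 far above for cholesterol synthesis.

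Class I antigen presentation genes lay lower in 11 of 12, with a median of -0.18. In 5 the libraries did not overlap, all lower, against 5.53% of all genes. HLA-C, a heavy chain of the class I complex, was at 44.1, 43.9 and 39.7 RPKM with the vector and 33.5, 30.9 and 29.5 RPKM with SNX29P2, a log2 fold change of -0.44. HLA-B, chosen after its values were seen, lay at -0.98 from a lower level. Class I genes resemble each other and vary between genomes, so reads can be shared or lost between them. PSMB8, an immunoproteasome subunit, lay at -0.33. The median of the list was -0.24 to -0.15 with each library left out.

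Of 14 interferon response genes, 10 lay lower, with a median of -0.10 (-0.04 without SNX29P2 replicate 2). In 5 the libraries did not overlap, all lower, against 5.53% of all genes. IFITM3, a membrane protein that blocks virus entry, was at 19.99, 19.7 and 17.3 RPKM with the vector and 13.8, 14.4 and 13.1 RPKM with SNX29P2, a log2 fold change of -0.46. IFITM1 lay at -0.72 and IFI6 at -0.45. Of 20 NF-kB targets, 17 lay lower, with a median of -0.30 and 3 without overlap, all lower, against 5.53% of all genes. ICAM1, an adhesion receptor, was at 13.1, 14.4 and 8.49 RPKM with the vector and 7.33, 9.47 and 6.13 RPKM with SNX29P2, a log2 fold change of -0.63, and PTGS2, an inducible cyclooxygenase, lay at -0.66. Vector replicate 2 was the highest library among these targets, and leaving it out moved their median to -0.12.

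Cholesterol synthesis genes lay lower in 21 of 24, with a median of -0.23. Vector replicate 1 had the highest level, 0.54 above the mean of the 6 libraries, and without it the median was -0.01, with 13 of 24 lower. Without vector replicate 3 it was -0.36. In fatty acid synthesis, SCD, a desaturase, was at 105, 54.2 and 44.6 RPKM with the vector and 42.7, 37.3 and 40.0 RPKM with SNX29P2, again with vector replicate 1 the highest.

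No hypoxia pathway gene other than CA9 was called by limma in either fit or by voom without the block. HIF1A, which encodes the oxygen-regulated HIF subunit, was at 86.3, 74.0 and 69.1 RPKM with the vector and 85.1, 75.9 and 71.9 RPKM with SNX29P2, a log2 fold change of 0.02 (SE 0.110). VHL, the recognition subunit of the ligase that marks HIF for destruction, was at 7.63, 7.63 and 6.01 RPKM with the vector and 7.10, 7.79 and 7.92 RPKM with SNX29P2, a log2 fold change of 0.11 (SE 0.108). The groups overlapped in both genes, and mRNA levels say nothing of the proteins. CUL2 and RBX1, subunits of the same ligase, lay at 0.14 and 0.18. Of 29 HIF targets other than CA9, 20 lay lower and 9 higher, with a median of -0.06. Against 5.53% of all genes lower and 6.13% higher, 4 of these targets were without overlap, all lower. They include ALDOC and PGK1 (-0.14), both glycolytic, and voom with the block called ALDOC (adjusted p 0.0305) and DDIT4 lower. The median was -0.01 without vector replicate 1, but -0.12 without vector replicate 2, where 24 of 29 lay lower, and -0.12 without vector replicate 3. Voom with the block also called BHLHE40 lower (adjusted p 0.0494) and, among genes of HIF regulation, HSP90AA1 higher (adjusted p 0.0456).

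Metabolic lists had small medians, several of which moved with 1 library. Glycolysis had 13 of 19 lower, with a median of -0.02. In 5 of the 19 the libraries did not overlap, all lower, against 5.53% of all genes. Without vector replicate 2 all 19 lay lower, with a median of -0.10, and without vector replicate 1 the median was -0.01. PFKL and PFKP, phosphofructokinase subunits, lay at -0.25 and -0.14 without overlap. The tricarboxylic acid cycle had 17 of 25 higher, with a median of 0.06, and DLD, a shared dehydrogenase subunit, lay at 0.18 and IDH3B at 0.19. Of the 25, 5 were without overlap above the vector and 1 below, against 6.13% and 5.53% of all genes. Nuclear complex I genes had 21 of 37 higher, with a median of 0.02 (-0.03 without SNX29P2 replicate 1, 0.07 without vector replicate 3). Genes of complexes III to V had 18 of 35 higher, with a median of 0.02 (-0.01 without SNX29P2 replicate 1, 0.04 without SNX29P2 replicate 2). Without overlap, 1 complex I gene and 2 genes of complexes III to V lay above the vector and none below. Mitochondrially encoded genes had 7 of 13 lower, with a median of -0.08. In 4 of the 13 the libraries did not overlap, all lower, against 5.53% of all genes. MT-CO2 was at 7872, 7899 and 7087 RPKM with the vector and 6914, 6853 and 6425 RPKM with SNX29P2, a log2 fold change of -0.18. The direction of the list median turned under quantile normalization (0.03), and it was 0.00 without SNX29P2 replicate 1 and -0.12 without SNX29P2 replicate 3. Mitochondrial ribosomal protein genes had 21 of 36 higher, with a median of 0.03 (-0.01 without vector replicate 1, 0.05 without vector replicate 3), among them MRPL18 (0.21) and MRPL1 (0.20). Of the 36, 4 were without overlap above the vector and 1 below, against 6.13% and 5.53% of all genes.

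The parent gene SNX29 was at 1.82, 1.60 and 1.41 RPKM with the vector and 1.89, 1.55 and 1.58 RPKM with SNX29P2, a log2 fold change of 0.05 (SE 0.136) with overlapping libraries. Of 32 sorting nexin and retromer genes, 24 lay higher, with a median of 0.07 (0.03 without SNX29P2 replicate 1), and 5 were without overlap above the vector and 2 below, set against 6.13% and 5.53% of all genes. VPS26A, a retromer subunit, was at 26.4, 23.0 and 24.4 RPKM with the vector and 28.3, 32.0 and 32.3 RPKM with SNX29P2, a log2 fold change of 0.33. Autophagy genes were divided in direction, 14 of 26 higher, with ATG3 at 0.17 and UVRAG at 0.24. In 4 of the 26 the libraries did not overlap, all higher, against 6.13% of all genes. Of 20 NRF2 targets, 13 lay higher, with a median of 0.04 (0.01 without SNX29P2 replicate 1, 0.10 without SNX29P2 replicate 3). Of the 20, 5 were without overlap above the vector and 2 below, against 6.13% and 5.53% of all genes. NQO1, a quinone reductase, was at 22.0, 23.0 and 25.6 RPKM with the vector and 29.1, 26.6 and 30.7 RPKM with SNX29P2, a log2 fold change of 0.29.

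**Figure D5:**
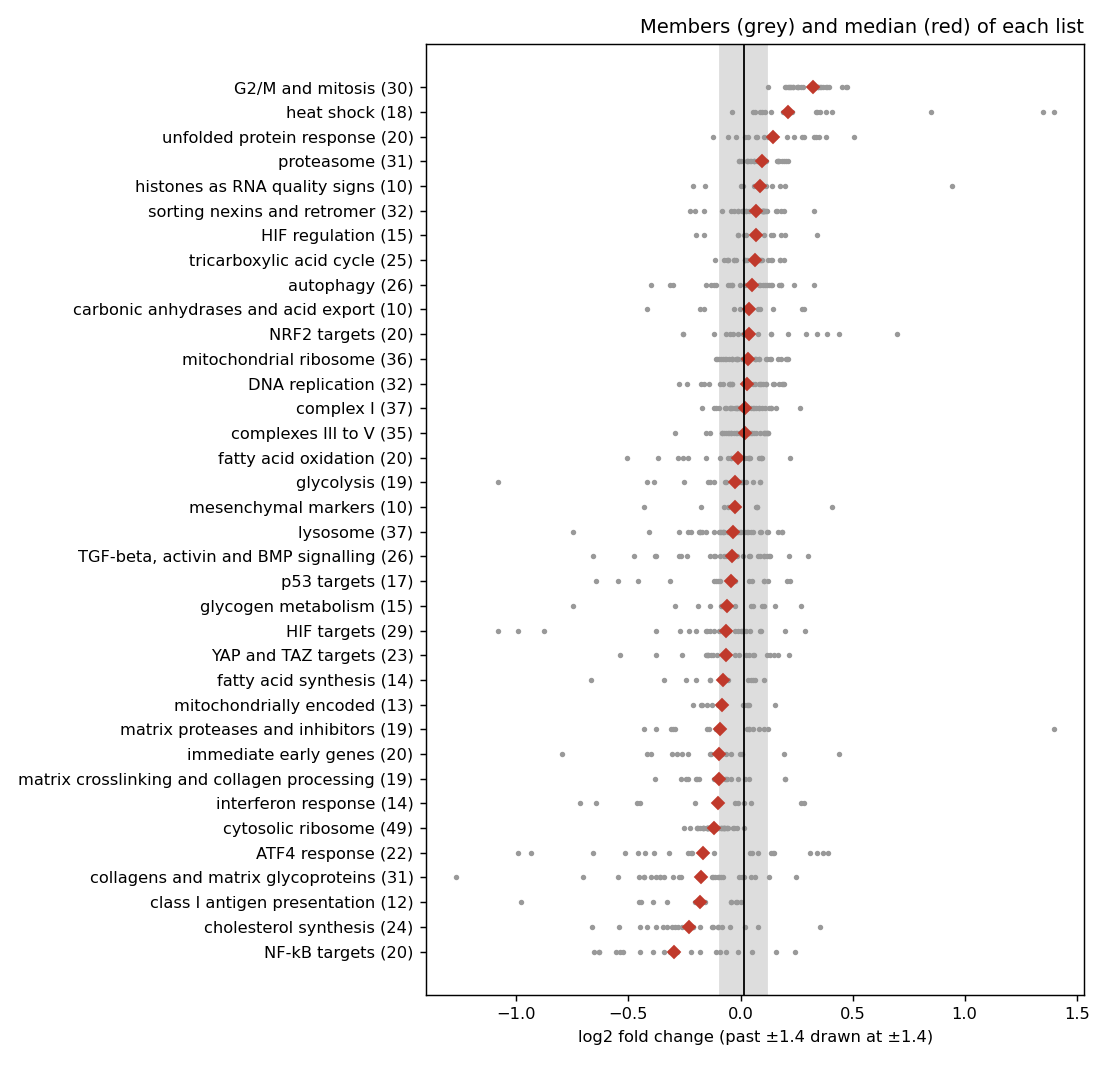
Log2 fold change (SNX29P2 over vector) of the members (grey points) and their median (red) in each list with at least 10 measured genes, numbers in brackets. The band spans the quartiles of all genes, -0.09 to 0.12, and the line their median. The medians of G2/M, heat shock and the unfolded protein response lie above the band, and those of NF-kB targets, cholesterol synthesis, class I genes and collagens are among those below it.

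The OTUB2 group shares the vector libraries with this comparison, so values of both are set side by side without a measure of their likeness. BGN was at 2.42, 2.13 and 2.23 RPKM with OTUB2, GAA at 12.1, 12.5 and 11.5 RPKM, COL6A2 at 65.1, 82.8 and 78.2 RPKM, PLTP at 18.6, 21.3 and 19.3 RPKM and FSTL3 at 6.15, 9.17 and 6.46 RPKM. Of these 5 genes, BGN and GAA were without overlap between the overexpression groups, both lower with SNX29P2, at log2 differences of -0.25 and -0.20, and neither was called (limma adjusted p of 1.00 for each). Tested directly, SNX29P2 against OTUB2, 4 genes were called (0.0242% of those tested): OTUB2, SNX29P2, SNX29P1 and RP11-231C14.7. At an unadjusted p under 0.05, 402 genes (2.43%) differed. No other gene named here was shown to differ between the overexpression groups, which does not show that they act alike.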

How the data were processed

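RNA of 9 ES-2 libraries, 3 per group, was measured by RNA-seq (total RNA extracted with TRIzol, standard Illumina libraries, per the labels' protocols). The authors deposited 1 table of RPKM values for 32997 genes with exon positions and lengths, per the file headers. The build is GRCh38, per the submitters' processing notes. How reads were aligned and counted, with or without strand, is not given in the sources used here. 25 names turned into dates were left unnamed. Whole reads, recovered from the steps in the values (100% of values below 1000 reads whole within 0.05 reads), gave the depths.

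Genes reaching 0.5 RPKM in 3 or more libraries were fitted as log2(RPKM + 0.1) with limma 3.58.1 (R 4.3.3, trended variance) on all 9 libraries, without and with the replicate number as a block. Tests were two-sided and adjusted over all 16533 genes by Benjamini-Hochberg. A count test had been planned for counts, and RPKM values required this test. The programs were tested on simulated data. Tables used pandas 2.3.3 and numpy 2.4.6, and figures matplotlib 3.10.9, under python 3.11.15.

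Members and the 41 gene lists (970 entries, 17 not matched, 109 below the filter) were chosen with earlier results of these data known. Named genes were those called in either fit, the 12 highest and 12 lowest fold changes among genes that had a symbol, averaged 1 RPKM or more in a group, did not overlap and had an unadjusted p under 0.01 in both fits, the 3 smallest p of each list, and HIF1A, VHL and SNX29. A few genes that this rule names are not reported here. Others are named as chosen after their values were seen. Alternatives were pseudocounts of 1 and 0.01, no filter, 1 RPKM in 6 libraries, 2 scalings, a robust variance, only the compared groups, each library left out, with and without the block, and limma voom on recovered reads. A fold of at least 1.5 and a fit without the libraries numbered 2 were added after seeing the data.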

Additional observations from a re-analysis of the deposited data

How the results depend on the processing

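The 3 genes called higher were also 3 under both pseudocounts, both scalings, the robust variance, a fold of at least 1.5, the block and each library left out without it. The filter of 1 RPKM in 6 libraries left 0 higher, because the SNX29P2 transcripts are low in the other 6 libraries and were not tested, and 1 lower (limma; 618 higher at an unadjusted p under 0.05). The 3 called lower became 1 with only the compared groups (also under the block), 7 with voom and 0 without the libraries numbered 2, where 429 lower and 284 higher had an unadjusted p under 0.05. With 1 library left out, 1 to 5 were called lower.

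The replicate block gave 6 called lower. Leaving out a library under the block gave 2 to 123 higher and 0 to 77 lower, the upper ends without vector replicate 1 (5 higher and 8 lower without vector replicate 3). Voom with the block gave 21 higher and 47 lower. Deviations from the group means correlated at -0.0178, 0.151 and 0.104 between vector and SNX29P2 libraries numbered 1, 2 and 3, at 0.0506, 0.193 and 0.139 between vector and OTUB2 libraries, and at 0.270, 0.259 and 0.153 between SNX29P2 and OTUB2 libraries. Not every pair was over 0.1, because of vector replicate 1, so the numbers were not taken to pair the samples. Vector replicate 1 did not correlate best with its own number among the SNX29P2 libraries (0.0502 with replicate 3).

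Unadjusted counts went from 682 higher and 676 lower to 1151 and 1121 with the block, 1286 and 1171 with voom and the block, 566 and 754 with median-of-ratios scaling, 601 and 816 with quantile normalization, and 1129 higher and 979 lower with no filter. Leaving out a library gave 388 to 987 higher and 444 to 930 lower without the block, and 501 to 2374 and 624 to 1590 with it (1117 and 1206 without vector replicate 3, 1241 higher without SNX29P2 replicate 1).

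With a library left out, the log2 fold change of HIF1A ranged from -0.045 to 0.12, below 0 without vector replicate 3 or SNX29P2 replicate 1 (-0.043). That of VHL ranged from -0.0065 to 0.16, below 0 without vector replicate 3 (-0.035 under the block). That of SNX29 ranged from -0.032 to 0.14, below 0 without vector replicate 3 (-0.0049 under the block) or SNX29P2 replicate 1 (-0.031). The cause was not tested. The planned negative binomial count test on recovered reads was not run, and voom was used instead. With 3 libraries a group, most changes under 1.22-fold were below what a typical interval could show.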

Other observations

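Voom on the recovered reads with the replicate number as a block called 68 genes, 21 higher and 47 lower, of which 9 were also called by limma on RPKM with the block. In 57 of the 68 the libraries did not overlap, against 11.7% of all genes. The 68 were picked by a test of the same difference, so this count gives no separate support. The numbers were not shown to pair the samples, and the genes named here were chosen after their values were seen. Among the genes called lower, VCAM1, an adhesion receptor, was at 1.81, 3.16 and 1.69 RPKM with the vector and 0.938, 1.61 and 1.04 RPKM with SNX29P2. JAG1, a Notch ligand, was at 5.60, 7.495 and 5.32 RPKM with the vector and 3.37, 3.96 and 4.25 RPKM with SNX29P2. LRP1, an endocytic receptor, was at 3.23, 2.78 and 1.73 RPKM with the vector and 1.68, 1.70 and 1.26 RPKM with SNX29P2, and ITGA3, an integrin subunit for laminins, had a log2 fold change of -0.37. DKK3 (-0.44), SLIT3 (-0.44), LGALS3BP (-0.40) and CST3 (-0.30), which encode secreted proteins, were also called lower.

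Genes called higher in that fit included BIRC2, an inhibitor of apoptosis and ubiquitin ligase, at 46.9, 51.6 and 50.3 RPKM with the vector and 63.5, 69.4 and 67.1 RPKM with SNX29P2, a log2 fold change of 0.43. CBX5, a heterochromatin protein, was at 10.5, 10.7 and 10.95 RPKM with the vector and 12.3, 13.9 and 14.3 RPKM with SNX29P2. HSPA6, an HSP70 induced by stress, was at 0.415, 0.307 and 0.265 RPKM with the vector and 5.12, 0.950 and 0.894 RPKM with SNX29P2, again with SNX29P2 replicate 1 the highest. HSPA4L (0.45) and CACYBP (0.32), which binds a ubiquitin ligase complex, were also called. In the limma fit on RPKM without the block, none of the genes named in these paragraphs was called.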
